A study of Mus musculus with 6 samples.

Results

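The alveolar macrophage identity genes are 10 genes that are used as markers of the resident macrophage of the lung air space, several of which other cells also express. They were Siglecf, Marco, Ear1, Ear2, Krt79, Pparg, Bhlhe41, Fabp4, Plet1 and Mrc1, chosen by name, and all 10 were found among the 49568 gene symbols of the bulk RNA-sequencing table. Lungs came from 3 mice labelled TNF-Tg and 3 mice labelled WT, all 4 months old, with 1 library per mouse. TNF-Tg mice carry a human TNF transgene and are a model of erosive arthritis with pulmonary vascular disease, and the WT mice were littermates without it. According to the methods of the study all mice were female and on a C57BL/6 background. The tissue is whole lung, so each value is a sum over every cell type, and fewer cells of a type and less RNA per cell cannot be told apart.

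Alveolar macrophages clear inhaled particles and surplus surfactant. They arise from fetal monocytes that settle in the air space, where GM-CSF from the alveolar epithelium and TGF-beta switch on the nuclear receptor PPAR-gamma, which in turn drives genes of lipid uptake and storage. The related repressors Bhlhe40 and Bhlhe41 keep up the self-renewal of these cells and hold down genes of other macrophages. Interstitial macrophages and macrophages newly derived from blood monocytes share Adgre1, Cd68 and Csf1r with alveolar macrophages but carry little or no Siglecf.

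Between 25396923 and 32529408 reads were counted per lung, and 3 counts, taken as the limit of detection, stood at 0.0922 to 0.118 CPM (counts scaled to the library total, a limit that covers counting error only). A pair of lungs stood apart, TNF-Tg replicate 1 with 5.22% of its counts on Gm42418, where the rest of the lungs had 0.0774% to 0.274%, and WT replicate 1 with 56570 counts of the squamous keratin Krt4, against at most 8 in each of the other lungs. The human transgene is not a row of the table. Mouse Tnf had 106, 213 and 405 counts in TNF-Tg lungs and 16, 14 and 35 counts in WT lungs (log2 fold change 3.62 with an SE, or standard error, of 0.46), and whether reads of the human transcript are among them was not tested. Its adjusted p was 0.000471 in the quasi-likelihood test of edgeR, adjusted by the Benjamini-Hochberg method, which is the source of every adjusted p below unless another test is named. Normalized counts below are counts scaled to the library size by edgeR's TMM method.

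The identity genes did not move as 1 group. Of the 10 genes, all of which were tested, 2 were higher in TNF-Tg lungs (Marco and Mrc1), 4 were lower (Siglecf, Ear1, Krt79 and Plet1) and 4 did not pass the cutoff of 0.05 (Pparg, Bhlhe41, Fabp4 and Ear2). Over all 19199 genes tested, 47.4% passed in either direction, 24% higher and 23.4% lower in TNF-Tg lungs, so the number of identity genes past the cutoff was near this background. These shares are also the background for every gene list below. Their median log2 fold change was -0.15, against 0.03 over all genes tested. The size of the changes differed widely, from a log2 fold change of 7.10 for Marco to -1.27 for Siglecf. In normalized counts the groups did not overlap in 7 of the 10 genes. In 2 every TNF-Tg lung lay above and in 5 every TNF-Tg lung lay below every WT lung, Ear2 by a narrow margin. Over all genes tested the share without overlap was 58.7%, 30.5% with TNF-Tg lungs above and 28.2% with TNF-Tg lungs below.

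**Figure D1:**
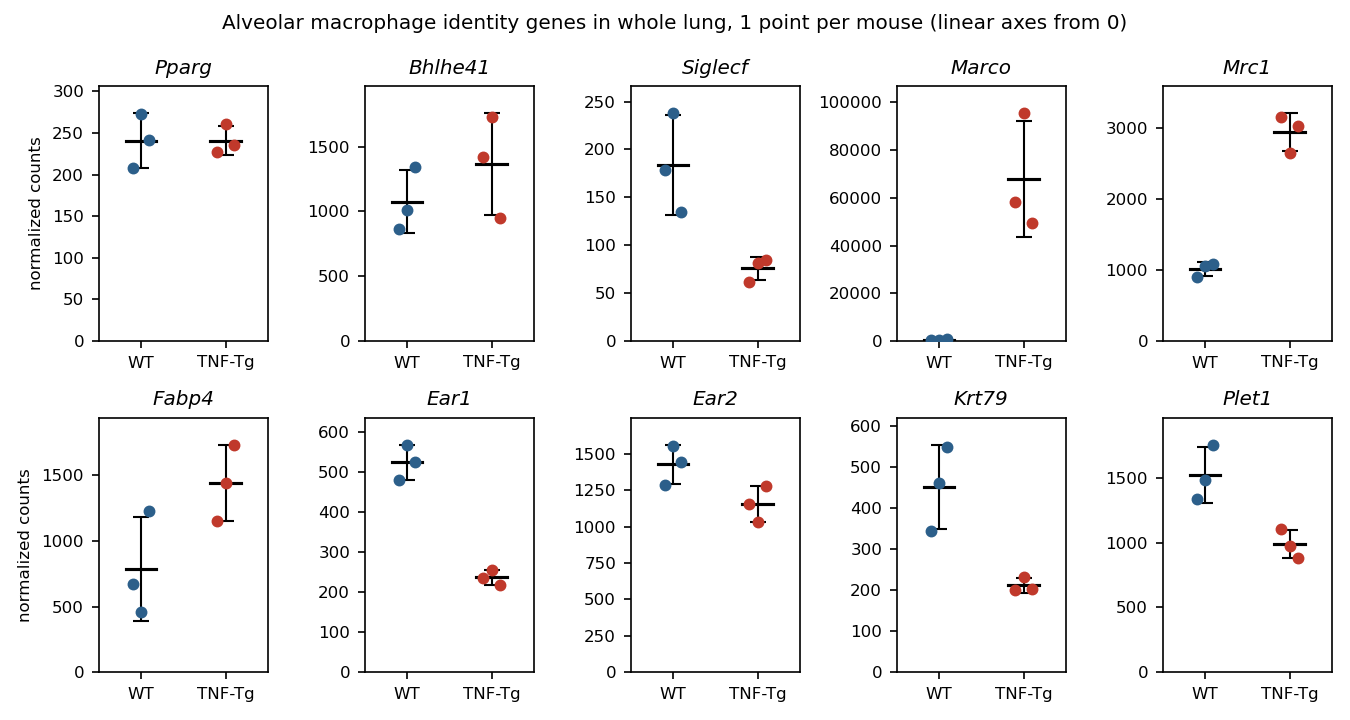
Normalized counts (y axes, linear and starting at 0) of the 10 identity genes in WT (blue) and TNF-Tg (red) lungs, 1 point per mouse, with the mean (bar) and SD (whisker) of 3 mice. The Marco points of the WT lungs, 259.9 to 885, lie at the foot of an axis that reaches 95434, while Siglecf, Ear1, Krt79 and Plet1 are lower in every TNF-Tg lung.

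Marco showed the largest change of the identity genes. It encodes a scavenger receptor that binds bacteria and unopsonized particles, and it lies on chromosome 1 (GRCm38, the build of all positions below, 120474538 to 120505024, minus strand). The TNF-Tg lungs held 58276, 95434 and 49542 normalized counts of Marco and the WT lungs 259.9, 338 and 885. Every TNF-Tg lung thus held over an order of magnitude more Marco than the highest WT lung, which was WT replicate 3. The means were 67751 ± 24369 (SD, n = 3) and 494 ± 341 (SD, n = 3), a log2 fold change of 7.10 (SE 0.58, adjusted p = 4.97e-05 by edgeR), or 137-fold. By log2 fold change Marco ranked 23 among the 19199 genes tested. The fold rested in part on WT replicate 3, without which the log2 fold change was 7.81. As a share of the library, Marco rose from between 8.66 and 30.7 CPM to between 1740.3 and 3071 CPM. None of the 1923 windows of 100 bases in the Marco transcripts, the length of 1 read, occurs in a transcript of another gene (0 windows).

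Mrc1, the mannose receptor CD206, which is found on alveolar and on many interstitial macrophages and on lymphatic endothelium, was the other gene that rose (chromosome 2, 14229392 to 14332057). The TNF-Tg lungs had 3150, 2644 and 3019 normalized counts and the WT lungs 900.2, 1058 and 1083. The replicates of each genotype lay close together, with a coefficient of variation of 8.93% and 9.79%, and the groups were far apart. The log2 fold change was 1.53 (SE 0.11, adjusted p = 2.98e-05 by edgeR), or 2.90-fold. Of the 4 lymphatic endothelial markers, Mmrn1 and Flt4 were lower in TNF-Tg lungs and Prox1 and Reln did not pass the cutoff, with summed normalized counts of 1761 to 2259 against 3540.2 to 4733.

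Siglecf encodes the sialic acid-binding lectin by which alveolar macrophages are gated in flow cytometry and which eosinophils also carry (chromosome 7, 43351341 to 43359531). It was the lowest of the 10 genes in level per transcript length, with 62.0, 81.7 and 84.0 normalized counts in the TNF-Tg lungs and 179, 238 and 134 in the WT lungs. The lowest WT lung still lay above the highest TNF-Tg lung. The log2 fold change was -1.27 (SE 0.25, adjusted p = 0.00426 by edgeR), which makes Siglecf 2.41-fold lower. The eosinophil peroxidase gene Epx had 0, 0 and 2 counts in TNF-Tg lungs and 3, 7 and 10 counts in WT lungs, and Prg3 and Ccr3 had at most 16 counts in any lung. Of the 5 eosinophil markers listed, 2 were tested and both were higher in TNF-Tg lungs. Prg2, a granule protein gene, had 583, 1061 and 453 counts in TNF-Tg lungs and 28, 16 and 70 in WT lungs, and Il5ra, the interleukin-5 receptor chain, had 30, 54 and 55 counts against 15, 15 and 16. The sum of the list was 497 to 1157 normalized counts in TNF-Tg lungs against 42.2 to 107 in WT lungs. In TNF-Tg lungs it was mostly Prg2 (769, 1097 and 428 normalized counts), so it does not describe the list as a whole. The part of eosinophils in the Siglecf values was not tested.

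The start regions of Marco and Siglecf are shown because these genes moved furthest in opposite directions. The sequences are from RefSeq (GRCm38.p6), span 300 bases around the start site in the direction of transcription, most of them before it, and were read at chr1:120504975-120505274 (minus strand) for Marco and chr7:43351091-43351390 (plus strand) for Siglecf. Capitals mark matches to the searched motifs.
Marco: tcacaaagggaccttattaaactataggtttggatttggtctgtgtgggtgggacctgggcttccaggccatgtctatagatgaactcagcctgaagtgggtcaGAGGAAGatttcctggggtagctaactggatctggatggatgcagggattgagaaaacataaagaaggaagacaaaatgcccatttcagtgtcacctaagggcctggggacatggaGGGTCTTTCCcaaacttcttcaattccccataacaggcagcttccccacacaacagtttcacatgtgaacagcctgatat
Siglecf: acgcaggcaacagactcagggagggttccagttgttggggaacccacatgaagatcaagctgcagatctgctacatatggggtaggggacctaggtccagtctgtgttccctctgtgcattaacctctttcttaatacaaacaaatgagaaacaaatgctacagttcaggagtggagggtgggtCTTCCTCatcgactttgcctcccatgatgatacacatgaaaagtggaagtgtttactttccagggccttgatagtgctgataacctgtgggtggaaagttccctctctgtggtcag
Of 6 motifs searched on both strands, Marco matched GAGGAAG, the core bound by the macrophage factor PU.1, at 146 bases before the start site, and the NF-kB motif, as GGGTCTTTCC, at 30 bases before it (any base was allowed at positions 4 and 5). Siglecf matched the PU.1 core on the reverse strand at 66 bases before the start site and no other motif of the 6. The PU.1 core occurred in 13.6% and the NF-kB motif in 1.63% of 32851 promoters of the same length. Promoters were found for 9 of the 10 identity genes, and Fabp4 was not matched. The PU.1 core was present in 3 of these genes (Siglecf, Marco and Mrc1), the nuclear receptor element AGGTCA in 2 (Pparg and Plet1, against 16.3% of all promoters), the E-box CACGTG in 1 (Bhlhe41, against 7.15%) and the AP-1 motif TGANTCA in 1 (Plet1, against 7.81%), while the STAT motif TTCNNNGAA matched none of them (0 genes, against 8.3% of all promoters). A match describes the sequence only and is not evidence of binding.

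Ear1 and Ear2 encode eosinophil-associated ribonucleases, secreted enzymes with antimicrobial activity that alveolar macrophages and eosinophils make. Both lie in the ribonuclease cluster of chromosome 14, Ear1 at 43818765 to 43875517 on the minus strand and Ear2 at 44102654 to 44103534 on the plus strand. Ear1 had 236, 256 and 218 normalized counts in the TNF-Tg lungs and 479, 566 and 525 in the WT lungs. The spread within each genotype was small and the groups were well apart, with a log2 fold change of -1.14 (SE 0.13, adjusted p = 0.00026 by edgeR), or 2.21-fold lower. Ear2 had 1154, 1032 and 1280.05 normalized counts in the TNF-Tg lungs and 1283, 1550 and 1446 in the WT lungs. Its groups touched without overlapping in normalized counts. In CPM they overlapped, with 46.6 in TNF-Tg replicate 3 and 42.8 in WT replicate 1. The log2 fold change of Ear2, -0.30 (95% interval -0.57 to -0.04), had an adjusted p of 0.059 by edgeR. Ear2 lay on either side of the cutoff depending on the tool, since DESeq2 gave an adjusted p of 0.0447.

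Expressed within each lung, from the same counts, Ear1 made up 16.98%, 19.9% and 14.6% of the sum of Ear1 and Ear2 in the TNF-Tg lungs and 27.2%, 26.8% and 26.6% in the WT lungs. The groups did not overlap, which restates the unequal fold changes of the pair. The start regions of the pair are shown because they are nearly the same, with 294 of 300 bases identical in the alignment. They were read from RefSeq (GRCm38.p6) at chr14:43819590-43819889 (minus strand) and chr14:44102404-44102703 (plus strand), and capitals mark bases that differ or are unaligned. The Ear1 region lies at the start site of 1 of its 2 annotated transcripts, 43819639, and the other transcript starts far upstream at 43875517.
Ear1: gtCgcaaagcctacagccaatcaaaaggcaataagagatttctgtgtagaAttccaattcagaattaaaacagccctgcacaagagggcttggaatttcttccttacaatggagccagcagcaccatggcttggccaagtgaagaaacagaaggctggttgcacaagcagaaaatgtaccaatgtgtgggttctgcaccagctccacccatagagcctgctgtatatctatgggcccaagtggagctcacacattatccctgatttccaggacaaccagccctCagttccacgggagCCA
Ear2: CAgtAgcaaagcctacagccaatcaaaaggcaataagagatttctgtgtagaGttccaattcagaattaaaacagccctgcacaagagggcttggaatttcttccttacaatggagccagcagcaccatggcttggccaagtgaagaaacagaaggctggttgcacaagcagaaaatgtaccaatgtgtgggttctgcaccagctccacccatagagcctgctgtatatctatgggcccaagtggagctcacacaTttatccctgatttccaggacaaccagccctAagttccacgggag
The longest transcripts of the genes are likewise 96.8% identical. Of the 100-base windows of Ear1, 23.9% also occur in Ear-ps9 or Ear10, and of those of Ear2, 13.9% also occur in Ear10 or Ear-ps2. No window was shared between Ear1 and Ear2 themselves (0 windows), but the counts of the cluster are uncertain as separate genes to the extent of the shared windows. Ear-ps9, a pseudogene row that overlaps exons of Ear1 on the same strand, had 30, 45 and 45 counts in TNF-Tg lungs and 79, 132 and 104 in WT lungs (-1.19 on the log2 scale, adjusted p = 0.00579 by edgeR). The sum of Ear1, Ear2 and Ear10 was 1491 ± 115 normalized counts (SD, n = 3) in TNF-Tg lungs and 2091 ± 211 (SD, n = 3) in WT lungs, with no overlap between the groups (two-sided exact permutation test, p = 0.1, the lowest value open to 3 lungs in each group).

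Krt79 is a keratin gene whose transcript marks alveolar macrophages among leukocytes and which is also made by epithelial cells of skin (chromosome 15, 101929332 to 101940324). It had 200.4, 233 and 203 normalized counts in the TNF-Tg lungs and 345, 461 and 550.04 in the WT lungs. The TNF-Tg lungs agreed closely while the WT lungs spread, and no TNF-Tg lung reached the lowest WT lung. Krt79 fell by 1.09 on the log2 scale (SE 0.19, adjusted p = 0.00198 by edgeR). Plet1, a surface protein of alveolar macrophages that some epithelial progenitor and dendritic cells also carry (chromosome 9, 50494525 to 50505482), had 1105, 975.2 and 885 normalized counts in TNF-Tg lungs and 1332, 1479 and 1752 in WT lungs. It had the smallest fall of the genes past the cutoff, with a log2 fold change of -0.62 (SE 0.13, adjusted p = 0.0055 by edgeR) and no overlap between the groups. The WT lung with squamous keratins held the lowest Krt79 and Plet1 of the WT lungs. Without it the log2 fold changes were larger, -1.28 for Krt79 and -0.74 for Plet1. Of the airway and squamous markers, Scgb1a1, Muc5b and Krt5 were lower in TNF-Tg lungs, Krt14 did not pass the cutoff, and Krt4 and Krt13 were not tested. Krt5 had 2617, 29 and 60 counts in WT lungs and 10, 11 and 4 in TNF-Tg lungs, so the size of its fall rested on WT replicate 1. The part of epithelial cells in Krt79 and Plet1 was not tested. Of the dendritic cell markers, Flt3 and Cd209a were higher and Ccr7 was lower in TNF-Tg lungs, and Zbtb46, Xcr1 and Clec9a did not pass the cutoff (summed normalized counts 2644 to 2943 against 2114 to 2292).

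The transcription factor genes of the identity set did not pass the cutoff. Pparg (chromosome 6, 115360951 to 115490399) had 227, 261 and 235 normalized counts in the TNF-Tg lungs and 207, 273 and 242 in the WT lungs. The TNF-Tg lungs lay inside the range of the WT lungs. The log2 fold change was 0.00 with a 95% interval of -0.36 to 0.36 (adjusted p = 0.997 by edgeR), so a change larger than this interval was not seen in whole lung RNA. Bhlhe41 (chromosome 6, 145858243 to 145865558) had 1421, 1728 and 951 normalized counts against 867, 1015 and 1346, with overlapping groups. Its log2 fold change was 0.34 (95% interval -0.19 to 0.88, adjusted p = 0.255 by edgeR). Of the windows of Bhlhe41, 13.4% are shared with Gm43909, a gene on the opposite strand that had between 8 and 15 counts per lung.

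Fabp4 encodes a fatty acid carrier that is a target of PPAR-gamma, and it is also abundant in fat cells and capillary endothelium (chromosome 3, 10204088 to 10208576). The TNF-Tg lungs held 1152, 1442 and 1728 normalized counts and the WT lungs 672, 460.03 and 1223. WT replicate 3 lay among the TNF-Tg lungs and the other WT lungs below them. The log2 fold change was 0.88 (95% interval 0.13 to 1.62, adjusted p = 0.0547 by edgeR), and without WT replicate 3 it was 1.35 with an adjusted p of 0.00256. All 7 endothelial markers were lower in TNF-Tg lungs, where 23.4% of all genes tested were. Their summed level was 43497 to 49636 normalized counts against 87833 to 104084. The fat cell markers varied between lungs, with summed normalized counts of 27.9 to 770.3 in TNF-Tg and 541 to 1190 in WT lungs. Adipoq had 13, 12 and 346 counts in TNF-Tg lungs and 334, 237 and 657 in WT lungs, so that WT replicate 3 was the highest in both Adipoq and Fabp4 among WT lungs. The part of either cell type in the Fabp4 values was not tested.

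**Figure D2:**
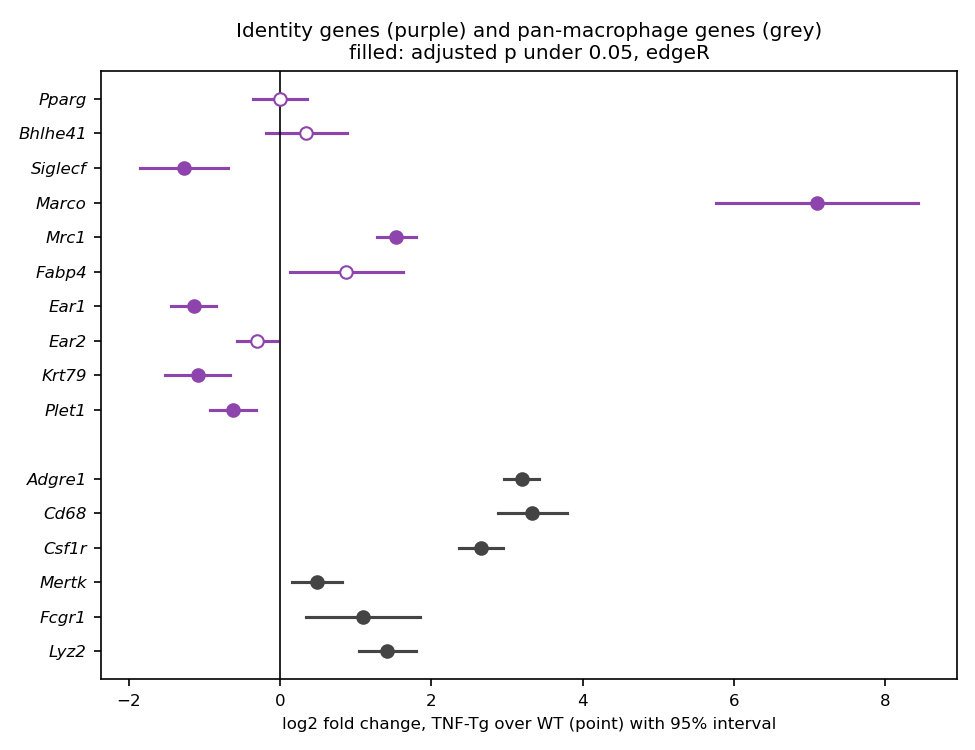
Log2 fold change of TNF-Tg over WT (x axis, point) with its 95% interval (line) for the 10 identity genes (purple) and 6 pan-macrophage genes (grey), n = 3 mice per genotype; filled points passed the adjusted p cutoff of 0.05. Marco lies at 7.10, to the right of all 6 pan-macrophage genes, and Siglecf, Ear1, Krt79 and Plet1 lie left of 0.

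Levels were compared between genes only per length, as CPM, computed with the TMM-scaled library size, per kilobase of the longest protein-coding transcript. On this scale the WT lungs ranked Ear2 first with a level of 65.6 ± 6.18 (SD, n = 3), then Plet1 (29.8 ± 4.18), Fabp4 (29.0 ± 14.5), Ear1 (24.3 ± 2.04), Marco (8.50 ± 5.85), Krt79 (7.13 ± 1.62), Mrc1 (6.24 ± 0.611), Bhlhe41 (5.80 ± 1.32), Pparg (3.75 ± 0.512) and Siglecf (2.33 ± 0.659). Neighbours in this order overlapped between lungs for Plet1 and Fabp4, Fabp4 and Ear1, Marco and Krt79, Krt79 and Mrc1, and Mrc1 and Bhlhe41, and the other neighbours did not. In TNF-Tg lungs Marco stood first with a level of 1164 ± 419 (SD, n = 3). It was followed by Fabp4 (53.2 ± 10.6) and Ear2 (53.2 ± 5.71), which overlapped, and Siglecf remained last with 0.963 ± 0.154. The largest moves in the order were those of Marco, from place 5 to place 1, and Krt79, from place 6 to place 9. In TNF-Tg lungs Krt79 overlapped its upper neighbour Pparg, so its place there is not firm.

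Within a genotype the genes were not highest in the same lung. Among WT lungs, replicate 3 held the highest normalized count of 6 genes (Marco, Krt79, Bhlhe41, Fabp4, Plet1 and Mrc1) and replicate 2 that of the other 4 (Siglecf, Ear1, Ear2 and Pparg), while replicate 1 held the lowest of 8. Among TNF-Tg lungs, replicate 2 held the highest count of 5 genes, replicate 3 of 3 and replicate 1 of 2. The coefficient of variation between lungs ran from 7.32% (Pparg) to 35.97% (Marco) in TNF-Tg lungs and from 8.38% (Ear1) to 68.9% (Marco) in WT lungs.

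Transcripts shared by all macrophages were higher in TNF-Tg lungs while the identity genes were split. The 6 pan-macrophage genes Adgre1, Cd68, Csf1r, Mertk, Fcgr1 and Lyz2 all passed the cutoff in this direction, where 24% of all genes tested did. Their median log2 fold change was 2.04. Cd68, a lysosomal protein of macrophages, rose from 1295 ± 156 (SD, n = 3) in WT to 13036 ± 3059 (SD, n = 3) normalized counts, and Adgre1, which encodes F4/80, from 590.3 ± 44.2 to 5412 ± 101. Mertk, the receptor by which macrophages take up dying cells, rose least (0.49 on the log2 scale, adjusted p = 0.0225 by edgeR), and in Fcgr1, an Fc receptor gene, the groups overlapped. With 1 lung left out 4 or 5 of the 6 genes passed the cutoff, 4 without TNF-Tg replicate 1, WT replicate 1 or WT replicate 3, and without both lungs that stand apart 4 passed. Their sum was 247219 to 273751 normalized counts in TNF-Tg lungs and 86017 to 87421 in WT lungs, a ratio of 3.01. Of 8 interstitial macrophage markers, 7 were higher in TNF-Tg lungs and Lyve1 was lower, with sums of 69308 to 88130.1 against 8677 to 10286, and of 5 monocyte markers Ly6c2, Ccr2 and Plac8 were higher, Vcan was lower and F13a1 did not pass (sums 7049 to 9317 against 3797 to 4282).

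Each identity gene was also set relative to 1000 normalized counts of the 6 pan-macrophage genes in the same lung. Because that sum was 3.01-fold higher in TNF-Tg lungs, a gene with an unchanged level falls by about the same factor in this measure. On this scale 7 of the 10 genes were lower in every TNF-Tg lung than in every WT lung, where 87.9% of all 19199 genes tested were, so the count says nothing particular about the identity genes. Pparg, at 0.828, 1.05 and 0.898 per 1000 against 2.37, 3.18 and 2.79, was 2.99-fold lower, which is the factor of the denominator. Siglecf stood at 0.226, 0.330 and 0.321 per 1000 in TNF-Tg lungs and at 2.04, 2.76 and 1.55 in WT lungs, which was 7.09-fold lower. Ear1 was 6.63-fold, Krt79 6.30-fold, Plet1 4.62-fold, Ear2 3.72-fold and Bhlhe41 2.40-fold lower. Mrc1, at 11.5, 10.7 and 11.5 per 1000 against 10.3, 12.3 and 12.5, overlapped between the genotypes, and so did Fabp4. Marco was higher in every TNF-Tg lung, at 213, 386 and 189 per 1000 against 2.97, 3.93 and 10.2.

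The choice of macrophage genes set the size of these ratios. Lyz2, which alveolar type 2 cells also express, made up 76.6% to 90.3% of the pan-macrophage sum. Without Lyz2 the denominator was 6.08-fold higher in TNF-Tg lungs, and 9 of the 10 genes, all except Marco, were lower in every TNF-Tg lung, as were 94.7% of all genes tested. With Cd68 alone, whose level was 10.1-fold higher, the count was also 9, against 96.3% of all genes tested. Whether the genotypes overlapped in Mrc1 and Fabp4 on this relative scale thus depended on Lyz2, and with Lyz2 kept it also rested on single WT lungs, since 8 genes were lower without overlap when WT replicate 1 or WT replicate 2 was left out.

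**Figure D3:**
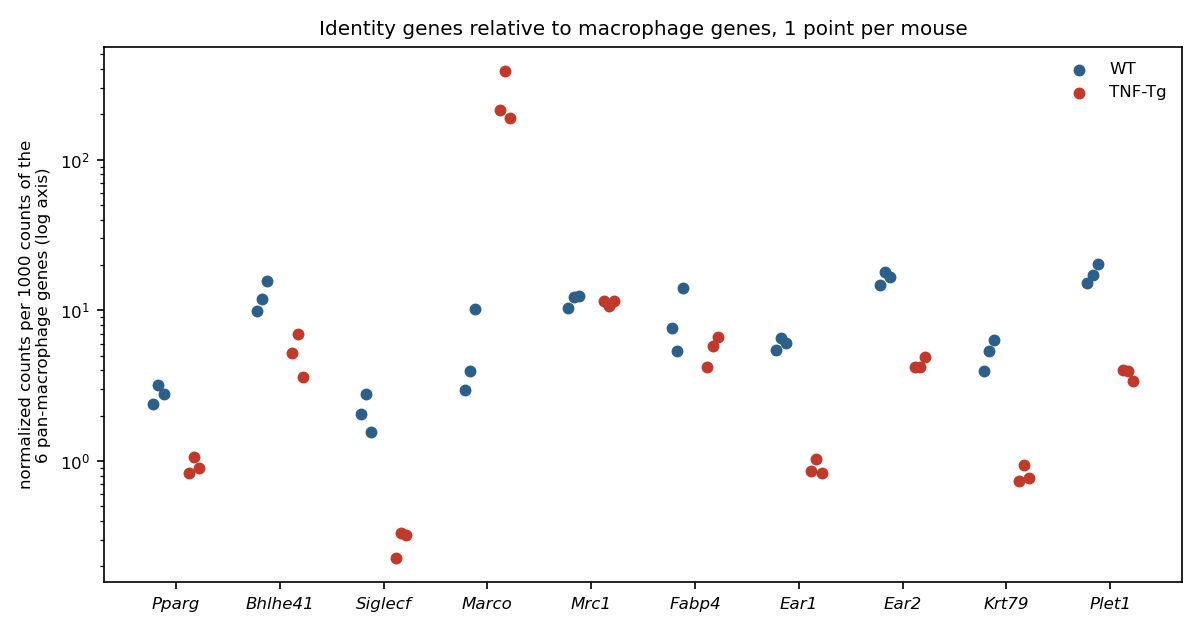
Normalized counts of each identity gene per 1000 normalized counts of the 6 pan-macrophage genes (y axis, log scale) in WT (blue) and TNF-Tg (red) lungs, 1 point per mouse. The denominator is 3.01-fold higher in TNF-Tg lungs, so Pparg, with a log2 fold change of 0.00 in total RNA, sits 2.99-fold lower, while Mrc1 and Fabp4 overlap and Marco is higher.

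Other markers of alveolar macrophages, from a list of 16 genes outside the identity set, were also split. All 16 were tested, and 8 were higher, 5 lower and 3 (Abcg1, Ear10 and F7) not past the cutoff, with a median log2 fold change of 0.40. Of all genes tested, 24% were higher and 23.4% lower. Itgax, the integrin CD11c that dendritic cells share, rose from a mean of 2151 ± 100.3 (SD, n = 3) in WT to a mean of 10424 ± 1769.99 (SD, n = 3) normalized counts (log2 fold change 2.28, adjusted p = 1.47e-05 by edgeR). Chil3, the chitinase-like protein Ym1, rose by a log2 fold change of 1.23 (adjusted p = 0.000335 by edgeR) and Atp6v0d2, a subunit of the lysosomal proton pump, by 1.97. Ear6, a further ribonuclease, rose from 5, 14 and 12 counts to 32, 58 and 25. Fabp1, a fatty acid carrier, fell the most of the list, from 122, 144 and 168 counts in WT lungs to 20, 25 and 39 in TNF-Tg lungs (-2.17 on the log2 scale, adjusted p = 0.000204 by edgeR). Car4, a carbonic anhydrase that a class of lung capillary cells also expresses, fell by 1.72 and Krt19, a keratin of airway epithelium, by 1.72 on the log2 scale. The lipid droplet gene Cidec fell by 1.82, but its adjusted p of 0.0252 rested on single lungs, with log2 fold changes from -2.91 without TNF-Tg replicate 3 (adjusted p = 0.000528 by edgeR) to -1.48 without TNF-Tg replicate 2 (adjusted p = 0.0734), and fat cells, which express it, varied between lungs as given above. Ear10 had a log2 fold change of -0.52 (adjusted p = 0.0863 by edgeR), and without WT replicate 1 its adjusted p was 0.0317.

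**Figure D4:**
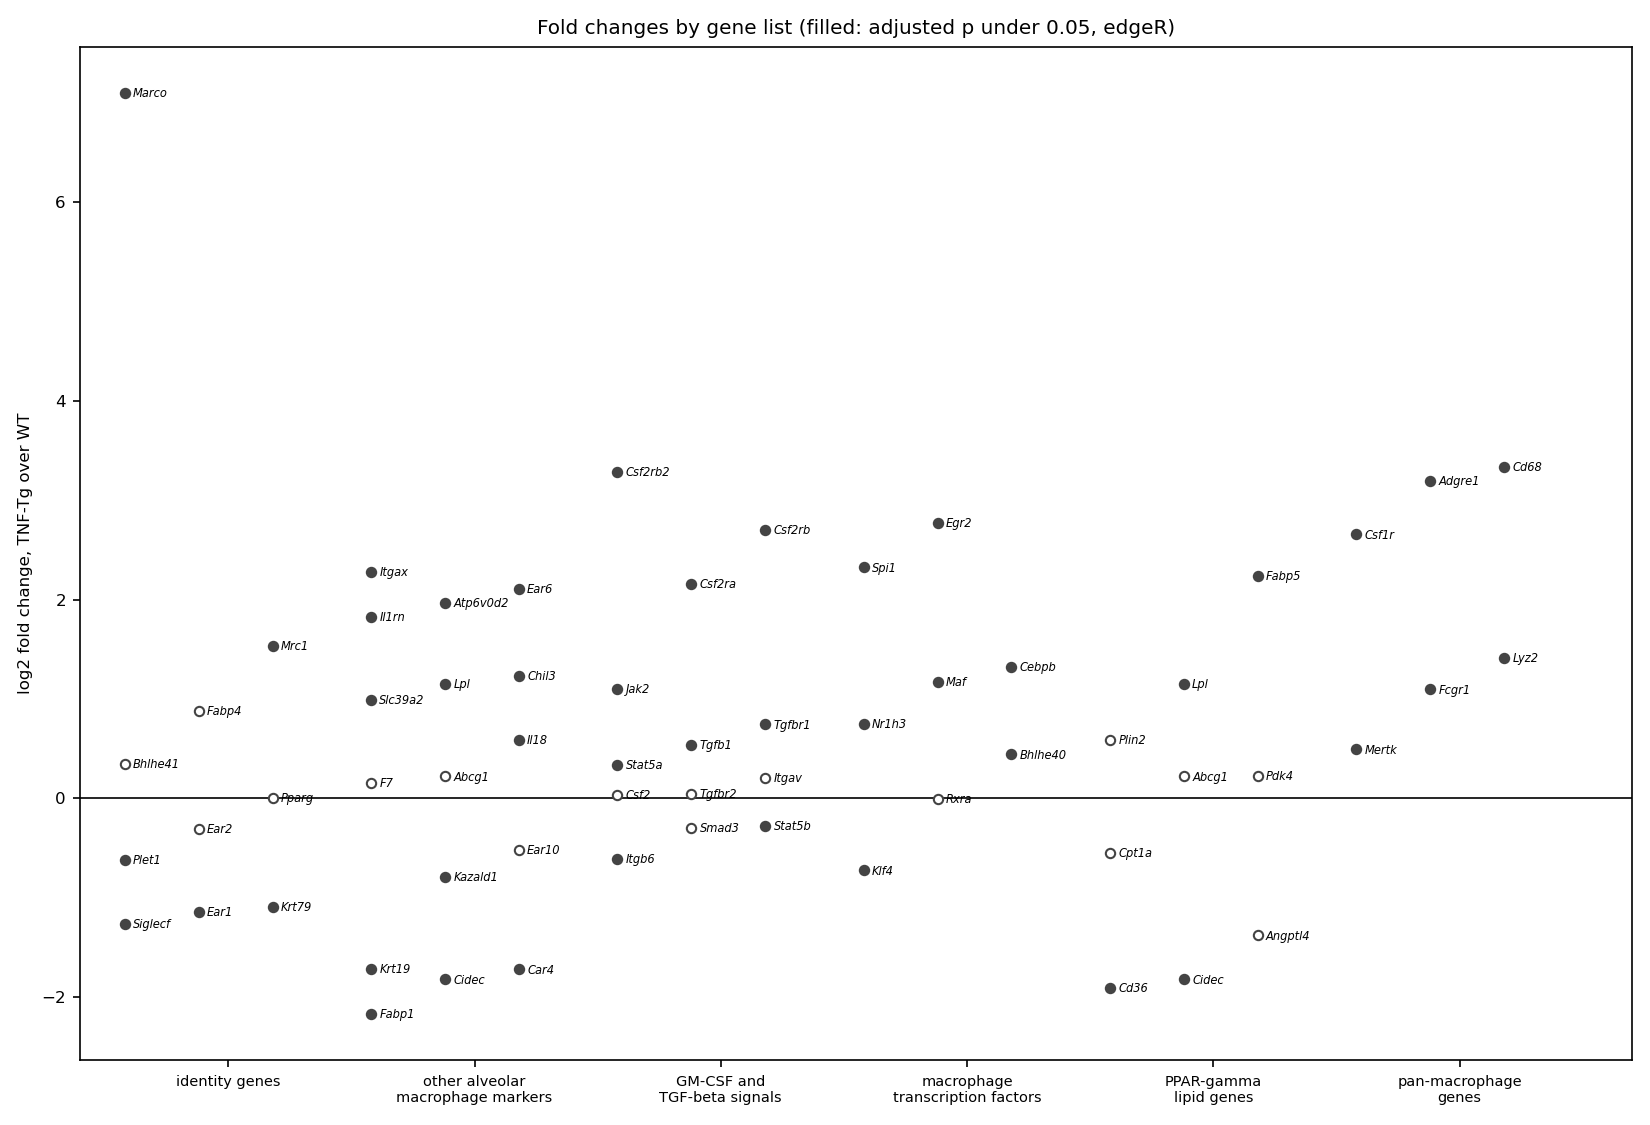
Log2 fold change of TNF-Tg over WT (y axis) for genes of 6 lists (x axis), each point a gene and filled where the adjusted p was under 0.05; Lpl, Abcg1 and Cidec appear in 2 lists. The GM-CSF receptor genes Csf2rb and Csf2ra, the related Csf2rb2 and the factors Egr2 and Spi1 lie above 2, while Csf2 and Pparg lie at the 0 line.

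Of 13 genes listed for the GM-CSF and TGF-beta signals that shape alveolar macrophages, 7 were higher, 2 lower and 4 not past the cutoff (median log2 fold change 0.34). The shares over all genes tested were 24% higher and 23.4% lower. The ligand gene Csf2 itself was low, with 24, 57 and 49 counts in TNF-Tg lungs and 60, 45 and 38 in WT lungs, and the groups overlapped (log2 fold change 0.04, SE 0.32, adjusted p = 0.932 by edgeR). Its receptor genes Csf2ra and Csf2rb rose in every TNF-Tg lung. Csf2ra, the ligand-binding chain, rose from 1128 ± 65.9 (SD, n = 3) in WT to 5023 ± 317 (SD, n = 3) normalized counts, and Csf2rb, the signalling chain, from 1005 ± 97.1 to 6515 ± 471. These receptor chains are also made by monocytes, neutrophils and other macrophages. Csf2rb2, counted in the list, encodes a related beta chain that is not part of the GM-CSF receptor, and it rose by a log2 fold change of 3.29. Tgfb1 rose by a log2 fold change of 0.54 (adjusted p = 0.00504 by edgeR), Tgfbr2 had a log2 fold change of 0.05 (adjusted p = 0.802), and Itgb6, part of the epithelial integrin that activates TGF-beta, fell by 0.61 on the log2 scale (adjusted p = 0.0169). Itgb6 missed the cutoff without TNF-Tg replicate 2 (adjusted p = 0.0604 by edgeR), without WT replicate 2 (0.0683) and without both lungs that stand apart (0.0613), and Tgfb1 without both of those lungs (0.0805). The STAT genes downstream of GM-CSF passed narrowly and in opposite directions, Stat5a with a log2 fold change of 0.34 (adjusted p = 0.0465) and Stat5b with -0.28 (adjusted p = 0.0388), and they missed the cutoff in 13 and 10 of 16 alternative analyses.

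Among 9 transcription factors of tissue macrophages, 7 were higher, Klf4 was lower and Rxra, the partner of PPAR-gamma, did not pass the cutoff (median log2 fold change 1.17). As a background, 24% of all genes tested were higher and 23.4% lower. Maf, which limits the self-renewal of macrophages, rose by 1.17 on the log2 scale and Spi1, which encodes PU.1, by 2.32. Egr2, which acts downstream of TGF-beta in alveolar macrophages, rose by a log2 fold change of 2.77 (adjusted p = 1.44e-05), and Nr1h3, the oxysterol receptor LXR-alpha, by 0.75. Bhlhe40, the partner of Bhlhe41, had a log2 fold change of 0.44 (adjusted p = 0.0302) and missed the cutoff in 9 of 16 alternative analyses.

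Of 10 lipid genes known as PPAR-gamma targets, Fabp5 and Lpl were higher, 3 were lower, among them Cd36 and Cidec, and 5 did not pass the cutoff (median log2 fold change -0.03). The number past the cutoff was near the background, since 47.4% of all genes tested passed. Fabp5, a fatty acid carrier of the same family as Fabp4, rose from 3186, 1907 and 1466 normalized counts in WT lungs to 10385, 12755 and 7841 in TNF-Tg lungs. Its log2 fold change was 2.24 (SE 0.30, adjusted p = 0.000597 by edgeR). Lpl, which releases fatty acids from lipoproteins, rose by 1.15. Cd36, a fatty acid receptor shared by macrophages and capillary endothelium, fell from 12764 ± 1668 (SD, n = 3) in WT to 3395 ± 239 (SD, n = 3) normalized counts, alongside the lower endothelial markers given above, whose part was not tested.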

How the data were processed

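The authors prepared stranded poly(A) libraries from whole lungs of 3 TNF-Tg and 3 WT mice, read as single ends of 100 bases. Per the labels, reads were trimmed with Trimmomatic, mapped with STAR (version 2.5.2b) to GRCm38 and assigned to genes with featureCounts, whose options and annotation are not given in the sources used here. The methods and the submitters' notes name different Trimmomatic versions. The deposited table holds raw counts per gene symbol and lung, without normalization. All 6 columns were used.

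Counts were tested here with edgeR (version 4.0.16, R version 4.3.3): its filter on low counts, TMM normalization and the quasi-likelihood test, in which genotype was the single term, at an adjusted p of 0.05 (Benjamini-Hochberg, over all genes tested). Standard errors are the log2 fold change divided by the square root of F. Relative values used a pseudocount of 1. The programs were tested on simulated counts. Alternatives were DESeq2 (version 1.42.0), limma-voom (limma version 3.58.1), other scalings and filters, robust dispersion, a minimum change, a replicate block and each lung left out, and, added after the data were seen, both lungs that stand apart left out.

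The members and gene lists were chosen with earlier results of these data known. All 10 members are named. From the other lists of the alveolar macrophage program, the 3 genes with the highest and the 3 with the lowest log2 fold change past the cutoff are named, and 15 further genes whatever their value, except for list members that are counted but not reported here by name. Il5ra, Krt14, Rxra, Epx and other markers are named as the results of their lists. Positions are from GENCODE M21 (GRCm38). The mice are different animals, and the same replicate number in both genotypes marks no shared litter in the labels.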

Additional observations from a re-analysis of the deposited data

How the results depend on the processing

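Marco and Mrc1 stayed higher, and Siglecf, Ear1, Krt79 and Plet1 lower, past the cutoff in all 16 alternative analyses, except that the 4 lower genes missed it when edgeR tested against a minimum absolute log2 fold change of 1. That test called 2 of the 10 identity genes, both higher, and 0 lower (0 also without adjustment for multiple tests, while DESeq2 and limma-voom, without a minimum change, called 5 and 4 lower). It called 6 in place of 13 other alveolar macrophage markers, 3 in place of 9 signal genes, 3 in place of 8 transcription factors, 2 in place of 5 lipid genes, and 2188 in place of 9096 of all genes tested. Without both lungs that stand apart, 6 identity genes, 5 signal genes, 3 lipid genes and 6064 genes in all were called. With 1 lung left out, 3 to 6 lipid genes were called, the fewest without TNF-Tg replicate 1, and 6 or 7 identity genes, where 37.3% to 46.6% of all genes tested were called. Ear2 passed the cutoff in 4 and Fabp4 in 5 of 16 alternatives. With the replicate block, 7 identity genes were called, Fabp4 among them (0.97 on the log2 scale, adjusted p = 0.0198 by edgeR), and 7686 of all genes. Correlations across genes between same-numbered lungs, each as its deviation from the mean of its genotype, were -0.149, -0.00429 and -0.242. With 3 lungs in each genotype these values cannot show whether such lungs shared a litter or batch. The log2 fold change of Pparg changed sign around 0, with -0.030 by DESeq2, -0.025 with DESeq2's size factors, -0.021 with total counts only, -0.0062 without a filter, -0.00028 with at least 10 counts in every lung, -0.094 without both lungs that stand apart and -0.12 to 0.10 with 1 lung left out, and its adjusted p was at least 0.618 in all 16 alternatives. With 1 lung left out, Csf2 ran from -0.19 to 0.23 and Tgfbr2 from -0.077 to 0.18, and Tgfbr2 was -0.012 without both lungs that stand apart. The cause of these moves was not tested. With 3 mice per genotype, changes as small as those of Ear2 stayed near the cutoff.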

Other observations

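The ribonuclease family was split. Of the 7 family genes listed, 5 were tested, and Ear6 and Rnase2b were higher in TNF-Tg lungs while Ear1 was lower. Ear2 and Ear10 had log2 fold changes of -0.30 and -0.52 and did not pass the cutoff. Rnase2b had 25, 34 and 23 counts in TNF-Tg lungs and 12, 5 and 6 counts in WT lungs (2.04 on the log2 scale, SE 0.43, adjusted p = 0.00529 by edgeR's quasi-likelihood test). Every TNF-Tg lung lay above every WT lung for Ear6 and for Rnase2b, though their counts were low. No window of 100 bases of Ear6 or Rnase2b occurs in another gene (0 windows). Rnase2a had at most 7 counts and Ear14 at most 1 count in any lung.

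Alveolar type 2 cells, which make surfactant and are a source of GM-CSF in the air space, had 4 listed markers. Of these, Sftpb, a surfactant protein gene, and Abca3, the lipid transporter of the surfactant granule, were lower in TNF-Tg lungs, with log2 fold changes of -0.88 and -0.89 (adjusted p = 0.00314 and 0.00124 by edgeR). Sftpc had a log2 fold change of -0.52 (adjusted p = 0.0837, groups not overlapping) and Lamp3 one of 0.19 (adjusted p = 0.189). The sum of the 4 genes was 363713 to 477820 normalized counts in TNF-Tg lungs and 563094 to 675155 in WT lungs.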
